A study of Mus musculus with 2 samples.

Results

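The acute-phase and antimicrobial effector genes examined here are 10 genes taken by symbol, namely Saa3, Lcn2, Lyz1, Lyz2, Slpi, Hp, Ptx3, Camp, Mpeg1 and Serpinb2, out of 55536 annotated genes. All 10 had a row in both deposited quantifications. Their RNA was measured in primary macrophages grown from the bone marrow of C57BL/6J mice. The cells were given lipid A, the TLR4-activating moiety of lipopolysaccharide, at 100 ng/ml. A first exposure of 12 h was followed by a washout of 12 h and by a further 90 min at the same dose. RNA of the nucleoplasmic fraction, which another label calls nuclear, was depleted of ribosomal RNA and sequenced as 2 libraries of this 1 group. Replicate 1 came from 1 µg of RNA and replicate 2 from 500 ng. The labels give them different replicate numbers but the same donor entry, so the spread between them may be technical, and they give neither age nor sex. No untreated, singly treated or cytoplasmic library was analysed here. The values are therefore levels within this condition, with no p-value, and say nothing of induction, tolerance or export from the nucleus.

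Gene counts summed to 29400104 in replicate 1 and 17789543 in replicate 2. With 3 counts as the limit behind a zero, a gene without reads could still stand at 0.102 CPM (counts relative to the library total) in replicate 1, against 0.169 CPM in replicate 2. Of 8 macrophage markers, 8 reached 1 TPM (a level corrected for transcript length and library size) in both libraries, and their summed level was 924 TPM in replicate 1, against 1156 TPM in replicate 2. The highest was Adgre1, which encodes the surface protein F4/80, with 377 and 521 TPM. No marker of 9 other cell types reached 1 TPM in both libraries by the first quantification. By the second, Pecam1, an endothelial marker that some leukocytes also carry, did, at 1.31 and 7.20 TPM. By the first quantification, dendritic cell markers summed to 2.17 and 1.80 TPM, with Ccr7 highest by mean at 1.05 and 0.66 TPM. In it, erythroid markers came from Alas2 alone, at 0.47 and 1.25 TPM. The stromal and endothelial list was led by Pecam1 at 0.41 and 0.48 TPM, and the B cell list by Cd79b at 0.08 and 0.36 TPM. In bulk RNA, fewer cells of a type and less RNA per cell cannot be told apart.

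The acute-phase response is the change in secreted proteins that follows infection or injury, driven largely by IL-6, IL-1 and TNF acting on the liver. Macrophages and neutrophils make some of the same proteins locally, together with enzymes, peptides and pore-forming proteins that damage microbes or withhold nutrients from them. In macrophages, signals from TLR4 reach many such genes through NF-kappaB, AP-1, interferon and C/EBP factors, while some lysozyme and perforin-like genes are also on in resting cells.

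The 10 genes fell into a group of 3 between 481 and 1099 TPM and 7 genes at or below 7.27 TPM in each library. Lyz2, Saa3 and Mpeg1 together held 99.5% of the summed TPM of the 10 genes in replicate 1 and 99.8% in replicate 2. The sum over all 10 was 2061 and 2239 TPM (2150 ± 126, SD, n = 2), which was 1.20% and 1.26% of the TPM of nuclear-encoded protein-coding genes. The other 7 genes summed to 9.55 and 5.35 TPM. At 1 TPM or more in both libraries stood 4 of 10 genes, or 40%, beside 8499 of 22015 nuclear-encoded protein-coding genes, or 38.6%. By that count the 10 genes did not stand apart from protein-coding genes in general. Their median level was 0.812 TPM in replicate 1, against 0.622 TPM in replicate 2, beside 0.18 and 0.25 TPM over all nuclear-encoded protein-coding genes.

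**Figure D1:**
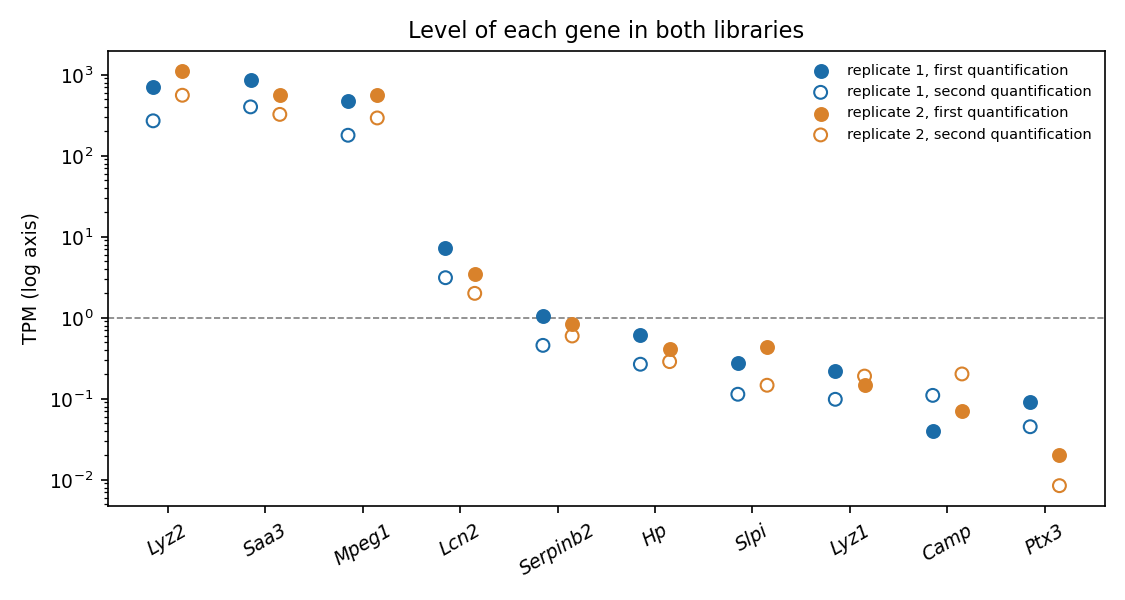
TPM of each of the 10 genes on a log axis, with replicate 1 in blue and replicate 2 in orange, filled for the first quantification and open for the second, and a dashed line at 1 TPM. Lyz2, Saa3 and Mpeg1 lie between 481 and 1099 TPM by the first quantification, Lcn2 is the only other gene above the line in both libraries by both quantifications, and Ptx3 is the lowest by the second.

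Lysozymes cut the peptidoglycan of bacterial cell walls. Mice have a pair of them side by side, Lyz2 (also called M lysozyme), typical of macrophages and neutrophils, and Lyz1 (P lysozyme), typical of Paneth cells of the gut. The genes lie on the minus strand of mouse chromosome 10 in the mm10 assembly, Lyz2 at chr10:117277331-117282321 and Lyz1 at chr10:117287797-117292868, with 5475 bases between them. The reads of such a pair have to be told apart by transcript sequence, so the likeness of the transcripts is given before the levels. The upstream sequences are shown first, as a description only. The following lines show the 250 bases before the RefSeq start of each gene (GRCm38.p6, minus strand, chr10:117292869-117293118 for Lyz1 and chr10:117282273-117282522 for Lyz2), written 5′ to 3′. Capitals mark bases that have no identical partner in the other gene.
Lyz1: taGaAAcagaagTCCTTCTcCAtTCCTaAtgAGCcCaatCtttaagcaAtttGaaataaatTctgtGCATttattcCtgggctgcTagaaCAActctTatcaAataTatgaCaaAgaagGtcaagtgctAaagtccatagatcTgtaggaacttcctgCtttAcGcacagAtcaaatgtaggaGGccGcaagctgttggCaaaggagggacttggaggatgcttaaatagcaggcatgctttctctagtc
Lyz2: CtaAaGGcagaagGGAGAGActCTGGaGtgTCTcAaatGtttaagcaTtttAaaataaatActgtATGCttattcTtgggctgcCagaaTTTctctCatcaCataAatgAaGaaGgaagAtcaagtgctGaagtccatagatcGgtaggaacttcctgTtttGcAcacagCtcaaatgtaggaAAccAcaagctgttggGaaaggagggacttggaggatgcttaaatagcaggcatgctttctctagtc
Of 252 aligned columns 200 were identical, or 79.4%, and the last 50 bases before the start did not differ at all. In Lyz2 most of those 50 bases lie within the gene span of the M21 annotation, while the Lyz1 window lies outside its gene span. The coding sequences, of 444 bases each, shared 422 bases, with 22 mismatches and a longest identical run of 118 bases. Of the stretches of 31 bases in the Lyz1 transcript, 34.2% also occur in the Lyz2 transcript.

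Lyz2 had 699 TPM in replicate 1 (37374 counts), against 1099 TPM in replicate 2 (31218 counts), a mean of 899 ± 283 TPM (SD, n = 2). It was the highest of the 10 genes by mean, at rank 12 of 22015 nuclear-encoded protein-coding genes. Lyz1 had 0.22 TPM in replicate 1 (11 counts), against 0.15 TPM in replicate 2 (4 counts). Of the counts of the pair, Lyz1 held 0.0294% in replicate 1 (exact 95% interval 0.0147 to 0.0526) and 0.0128% in replicate 2 (0.00349 to 0.0328), so the intervals of the libraries overlap. These intervals cover counting error only. The TPM of Lyz2 was 3176 times that of Lyz1 in replicate 1 and 7326 times in replicate 2, and by the second quantification 2743 and 2932 times. The Lyz1 level rests on 11 and 4 counts, and whether any of them came from Lyz2 transcripts was not tested. The other neighbours of the pair differed widely. Cpsf6, which encodes a cleavage factor subunit for mRNA 3′ ends, had 24.1 and 30.2 TPM, Yeats4 had 3.74 and 3.14 TPM, and 9530003J23Rik, an annotated gene on the other side of Lyz2, had 0 counts in both.

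Among the protein-coding genes, those whose levels over both libraries lay nearest to Lyz2 were Actb, the cytoplasmic actin gene, with 909 and 935 TPM, and Acod1, which makes itaconate, with 830 and 772 TPM. Their distances were 0.44 and 0.57 on the log2(TPM + 1) scale over the 2 libraries.

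Saa3 encodes a serum amyloid A that macrophages and other cells outside the liver make, while Saa1 and Saa2 are the major serum forms from the liver. Saa3 lies on the minus strand at chr7:46711998-46715700. The 250 bases before its RefSeq start (GRCm38.p6, chr7:46715677-46715926, minus strand) are shown because Saa3 is one of the 3 highest genes, with capitals marking matches to the motifs searched.
Saa3: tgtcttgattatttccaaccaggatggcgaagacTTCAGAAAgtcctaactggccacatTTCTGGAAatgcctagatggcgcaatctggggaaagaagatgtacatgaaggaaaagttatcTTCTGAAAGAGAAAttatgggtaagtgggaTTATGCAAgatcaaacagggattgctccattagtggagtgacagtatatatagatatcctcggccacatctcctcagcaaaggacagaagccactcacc
The motifs were searched on both strands in this window of 9 of the 10 genes, all but Hp, from the RefSeq promoter table. They were the kappaB consensus, C/EBP (TTNNGNAA), AP-1 (TGANTCA), an interferon-stimulated response element and PU.1 (GAGGAAGT). Saa3 held 4 C/EBP matches, at positions -216 to -209, -191 to -184, -129 to -122 and -99 to -92 counted back from the start, with -1 the base just before it. Its 1 match to the interferon-stimulated response element, at -125 to -116, overlaps the third of these. That element occurred in the window of 2.98% of 32851 promoter entries, and in 1 of the 9 genes. The end of the Saa3 window nearest the start lies within the gene span of the M21 annotation.

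Saa3 had 871 TPM in replicate 1 (21439 counts), against 564 TPM in replicate 2 (7925 counts), a mean of 718 ± 217 TPM (SD, n = 2). It ranked 16 among nuclear-encoded protein-coding genes by mean. It was above Lyz2 in replicate 1 and below it in replicate 2, so the order of these neighbours is not settled by the 2 libraries, and the same holds for Saa3 and Mpeg1 by the first quantification. Saa1 had 0 and 2 counts, Saa2 had 1 and 0, and Saa4 had 0 and 0, although Saa4 lies 12297 bases from Saa3, Saa1 24796 and Saa2 36089. By the second quantification Saa4 was at 0.23 and 1.37 TPM. The coding sequence of Saa3 shared 75.7% of aligned positions with Saa1 and 74.7% with Saa2, less than the 95.1% between Saa1 and Saa2. Saal1, on the other side of Saa3 at 1317 bases, had 1.14 and 1.99 TPM. The genes nearest to Saa3 in level were Grn, the progranulin gene, at 785 and 661 TPM, and Ctss, a lysosomal protease gene, at 727 and 658 TPM. Their distances were 0.27 and 0.34.

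Saa3 had a longer annotated isoform, Saa3-202, of 2200 bases in 2 exons, which covers 2051 of the 3148 intron bases of the main isoform Saa3-201 (555 bases, 4 exons). Saa3-202 held 40.6% of the gene's counts in replicate 1 (Wilson 95% interval 39.9 to 41.3) and 46.0% in replicate 2 (44.9 to 47.1). Because TPM divides by length, its part of the TPM was smaller, at 10.33% in replicate 1, against 12.58% in replicate 2. The share of counts was higher in replicate 2 by the first quantification and also by the second, at 38.6% in replicate 1 and 46.2% in replicate 2. Nuclear RNA can hold transcripts whose introns are still present, and reads in an intron count toward any isoform that includes it, so this share does not say how much of a spliced Saa3-202 was there.

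Mpeg1 encodes perforin-2, a pore-forming protein of phagocytes that acts on engulfed bacteria. It lies on the plus strand at chr19:12460779-12465283. Mpeg1 had 481 TPM in replicate 1 (96678 counts), against 571 TPM in replicate 2 (60852 counts), a mean of 526 ± 63.4 TPM (SD, n = 2). That was the highest count of the 10 genes in both libraries, while its level ranked 27 by mean, its transcript being 4334 bases long. Its neighbour Pfpl, a gene named for its likeness to a pore-forming protein, had 0.01 and 0.06 TPM, and Dtx4, which ends 1054 bases away on the other strand, had 4.36 and 7.20 TPM. The genes nearest in level were the mitochondrial mt-Co3 at 456 and 620 TPM and Oasl2, an interferon-stimulated gene, at 533 and 554 TPM, at distances of 0.14 and 0.15. No motif searched occurred in the 250 bases before its RefSeq start, shown for comparison with Saa3 (GRCm38.p6, chr19:12460520-12460769, plus strand).
Mpeg1: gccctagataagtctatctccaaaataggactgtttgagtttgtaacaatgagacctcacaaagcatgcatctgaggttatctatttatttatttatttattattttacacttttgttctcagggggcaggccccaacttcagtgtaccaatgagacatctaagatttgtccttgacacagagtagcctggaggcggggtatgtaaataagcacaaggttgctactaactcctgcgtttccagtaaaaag

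The deposited tables also give a credibility interval for each TPM, the level of which the sources used here do not state. For Lyz2, Saa3 and Mpeg1 the deposited TPM lay above the upper bound in both libraries. The upper bound for Lyz2 was 689.8 TPM in replicate 1, against 1066 TPM in replicate 2. For the other 7 genes the TPM lay inside the interval in both libraries.

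Lcn2 encodes lipocalin 2, a secreted protein that binds bacterial siderophores and so withholds iron. It lies on the minus strand at chr2:32384633-32388252. Lcn2 had 7.27 TPM in replicate 1 (245 counts), against 3.43 TPM in replicate 2 (64 counts), a mean of 5.35 ± 2.72 TPM (SD, n = 2). It was the fourth of the 10 genes, below Mpeg1 and above Serpinb2 in both libraries, and ranked 5035 by mean. Its 250 bases before the RefSeq start (GRCm38.p6, chr2:32387740-32387989, minus strand) hold 1 C/EBP match, at -216 to -209, in capitals. That window lies within the gene span of the M21 annotation.
Lcn2: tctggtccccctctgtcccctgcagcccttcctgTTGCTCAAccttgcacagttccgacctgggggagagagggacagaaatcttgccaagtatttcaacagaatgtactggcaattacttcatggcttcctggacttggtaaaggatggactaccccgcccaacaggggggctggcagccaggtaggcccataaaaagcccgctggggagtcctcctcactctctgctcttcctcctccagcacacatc

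Lcn2 has 6 annotated isoforms, of which 4 cover at least 100 bases of the introns of Lcn2-201. Those 4 held 55.1% of the gene's counts in replicate 1 (Wilson 95% interval 48.8 to 61.2) and 43.8% in replicate 2 (32.3 to 55.9), with overlapping intervals. They held 55.5% and 42.3% of the gene's TPM by the first quantification, and 56.1% and 52.2% by the second. Lcn2-201, the spliced protein-coding isoform, held 44.49% and 57.74% of the TPM, and the retained-intron isoform Lcn2-202 held 30.03% and 26.11%. The remaining 3 of the 4 isoforms, Lcn2-203, Lcn2-204 and Lcn2-205, each held less of the TPM than Lcn2-202 in both libraries, while by counts in replicate 2 Lcn2-204 held 21.2% and Lcn2-202 held 20.6%.

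**Figure D2:**
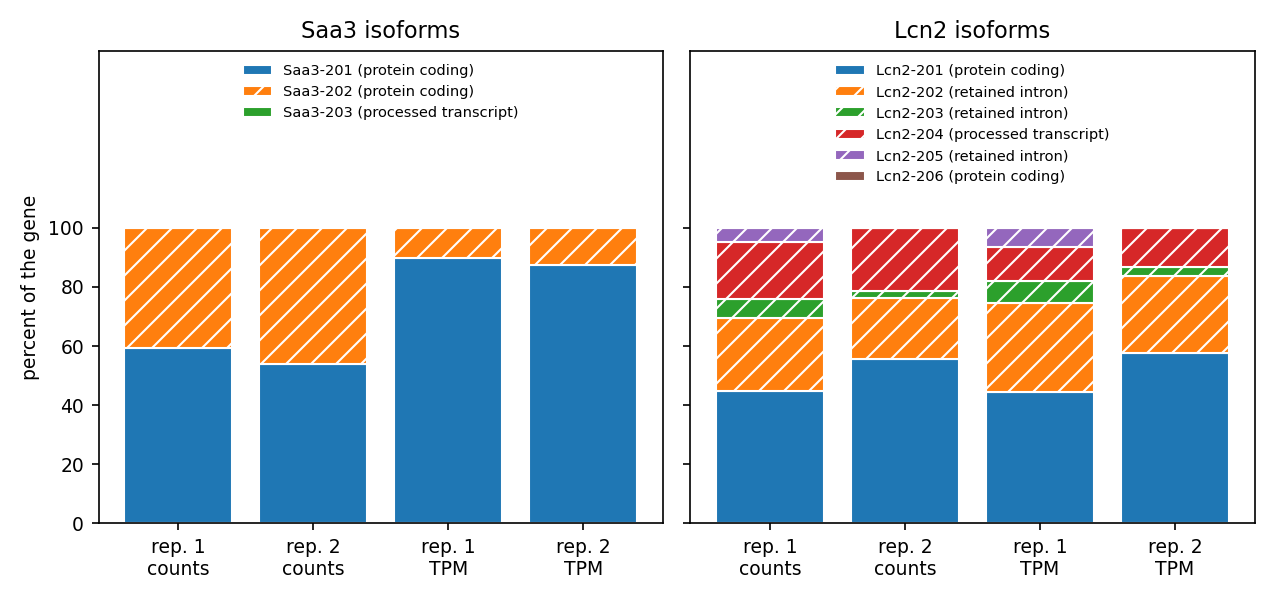
Percent of each gene's counts and TPM held by each annotated isoform of Saa3 (left) and Lcn2 (right) by library, in the first quantification, with hatching for isoforms that cover at least 100 intron bases of the main isoform. Saa3-202 takes a larger part of the counts, at 40.6% in replicate 1 and 46.0% in replicate 2, than of the TPM, and the hatched Lcn2 isoforms hold 55.1% and 43.8% of its counts.

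Serpinb2, Slpi and Ptx3 were near or below 1 TPM. Serpinb2 encodes plasminogen activator inhibitor 2, an intracellular serpin of macrophages, and lies on the plus strand at chr1:107511423-107535478. It had 1.04 TPM in replicate 1 (89 counts), against 0.84 TPM in replicate 2 (38 counts), and so crossed 1 TPM in replicate 1. Slpi encodes a secreted inhibitor of leukocyte proteases, on the minus strand at chr2:164354070-164389095. It had 0.28 TPM in replicate 1 (8 counts), against 0.43 TPM in replicate 2 (3 counts). Relative to library totals the order was reversed, at 0.272 and 0.169 CPM, so no direction can be given for it. In replicate 2 its counts were all assigned to Slpi-202, of 488 bases, by the first quantification. By the second they were all assigned to Slpi-201, of 876 bases. Ptx3 encodes a long pentraxin that marks microbes for phagocytosis, on the plus strand at chr3:66219910-66225805. It had 0.09 TPM in replicate 1 (7 counts), against 0.02 TPM in replicate 2 (1 count).

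Few counts were assigned to genes that overlap these. Serpinb10, which overlaps Serpinb2, had 2 and 0 counts. Mir7678 within Slpi and Veph1 on the strand opposite Ptx3 had 0 counts in both. Serpinb8, the next serpin gene downstream of Serpinb2, had 2.43 and 3.40 TPM, while Serpinb7, Serpinb11 and Serpinb3c upstream were at 0 counts in both libraries.

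Hp encodes haptoglobin, which binds free haemoglobin and is made mainly by the liver, and lies on the minus strand at chr8:109575128-109579172. Hp had 0.61 TPM in replicate 1 (32 counts), against 0.41 TPM in replicate 2 (12 counts), a mean of 0.51 ± 0.141 TPM (SD, n = 2). All 5 hepatocyte markers were at 0 counts in both libraries. Camp encodes the cathelicidin precursor, an antimicrobial peptide stored in neutrophil granules, on the minus strand at chr9:109847379-109849617. Camp had 0.04 TPM in replicate 1 (1 count), against 0.07 TPM in replicate 2 (1 count). By the second quantification it was at 0.11 and 0.202 TPM. The 13 neutrophil and granulocyte precursor markers summed to 1.58 TPM in replicate 1, against 2.15 TPM in replicate 2, with Mmp8 highest at 0.56 and 0.84 TPM and Elane, Ctsg, Retnlg and Ly6g at 0 counts in both by the first quantification. Cxcr2 was the highest of these markers by the second quantification, at 0.484 and 1.74 TPM. The part of neutrophils and granulocyte precursors in the Camp counts was not tested. Epithelial, adipocyte and T and NK cell markers each summed to at most 0.01 TPM in either library by the first quantification. By the second, Plin1, an adipocyte marker, was at 0.110 and 0.354 TPM and Cd8a, a T cell marker, at 0.217 and 0.436 TPM.

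Down the order of mean levels by the first quantification, Mpeg1, Lcn2, Serpinb2 and Hp were separated, in that the lower library of each was above the higher library of the next, and so were Slpi from Lyz1 and Lyz1 from Camp. Lyz2 and Saa3, Saa3 and Mpeg1, Hp and Slpi, and Camp and Ptx3 were not separated. By the second quantification Saa3 was above Mpeg1, Hp above Slpi and Camp above Ptx3 without overlap. Lyz1, at 0.0985 and 0.191 TPM, was then below Camp, at 0.110 and 0.202 TPM, in each library, and its range overlapped that of Slpi, at 0.114 and 0.147 TPM. Slpi, Lyz1, Camp and Ptx3 had mean counts under 10, so their places rest on few counts.

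The libraries were compared as the log2 ratio of replicate 1 over replicate 2 of counts scaled by the TMM method, which sets a common scale from most genes. This describes 2 libraries of 1 group and not a treatment. Of the 10 genes, 6 had a mean count of at least 10 and were compared, and 1 of those 6, Lcn2, differed by more than 1 on the log2 scale. Over all 14831 genes compared, 13.4% did. Lcn2 had 8.83 scaled CPM in replicate 1 and 3.39 in replicate 2, a log2 ratio of 1.37 whose 95% counting interval, 0.98 to 1.80, includes 1. Saa3 had 773 scaled CPM in replicate 1 and 420 in replicate 2, a log2 ratio of 0.88 (0.84 to 0.92). Lyz2, at 1347 scaled CPM in replicate 1 and 1656 in replicate 2, went the other way, with a log2 ratio of -0.30 (-0.32 to -0.28). Saa3 and Lcn2 were thus higher in replicate 1 and Lyz2 lower, on every scale compared. Across those scales the log2 ratio ran from 0.31 to 1.07 for Saa3, from 0.64 to 1.59 for Lcn2 and from -1.05 to -0.02 for Lyz2. These scales were TMM, library totals, DESeq2 size factors, counts of the second quantification and TPM of both quantifications.

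Mpeg1 had a log2 ratio of 0.11 by TMM but -0.06 by library totals and -0.25 by deposited TPM, so no direction can be given for it. Serpinb2 had 0.66 (0.11 to 1.26) and Hp 0.84 (-0.14 to 1.95) by TMM, while by TPM of the second quantification the ratios were -0.38 and -0.11. That scale lay below the counts of the second quantification for each of the 6 genes compared, as for Mpeg1 at -0.71 against 0.38. The shift was thus not particular to Serpinb2 and Hp. Library totals moved the median ratio of all genes compared to -0.18, against -0.01 by TMM. By counts of the second quantification 2 of 7 genes compared, Lcn2 and Saa3, were beyond 1, and 16.8% of 23904 genes were.

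**Figure D3:**
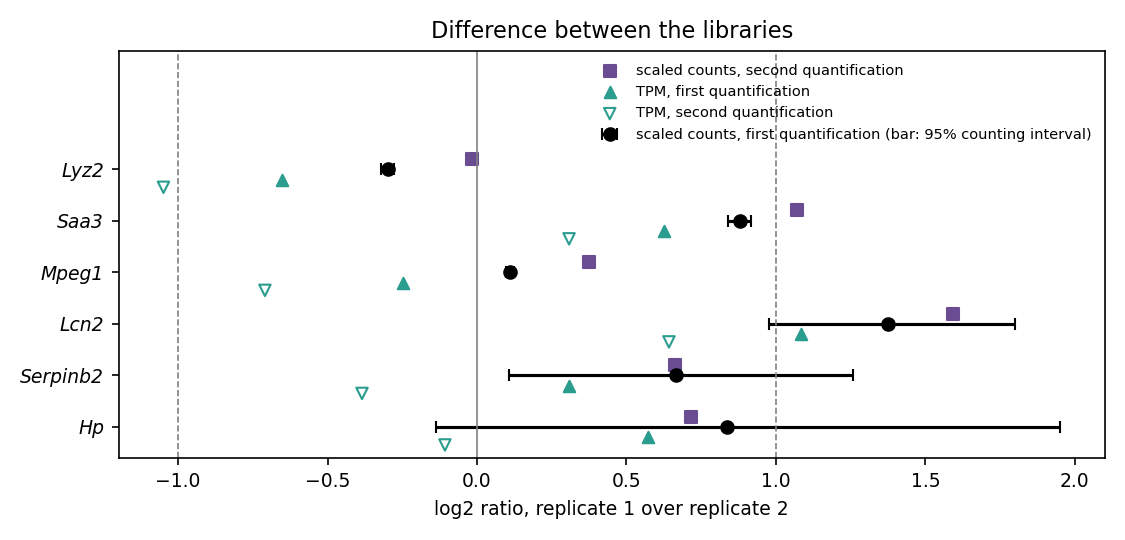
Log2 ratio of replicate 1 over replicate 2 for the 6 genes compared, with black points and 95% counting intervals for TMM-scaled counts, squares for counts of the second quantification, and triangles for TPM (filled first, open second). Dashed lines mark -1 and 1, and Lcn2 lies at 1.37 with its interval crossing 1, while Mpeg1, Serpinb2 and Hp have symbols on both sides of 0.

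The genes that surround these 10 in their pathways were read from 5 lists of 90 symbols, of which 46 were at 1 TPM or more in both libraries. Regulators of the response were the most completely present, with 18 of 19 and a median level of 25.5 TPM in replicate 1 and 18.1 in replicate 2. Tnf, a cytokine gene, had 610 and 507 TPM, and Irf1, an interferon-pathway transcription factor, had 208 and 122 TPM. Among C/EBP factors, Cebpb had 27.6 TPM in replicate 1, against 11.2 TPM in replicate 2. Cebpd had 4.96 and 5.33 TPM, Cebpa 1.94 and 1.96 TPM, and Cebpe, which is needed for granulocyte maturation, 0.02 and 0 TPM from 1 and 0 counts. Of 18 regulators compared, 3 had a log2 ratio above 1, Cebpb at 1.65, Irf1 at 1.10 and Il6, the cytokine gene, at 1.05, beside 5.85% of all genes compared. That count was 1 by library totals and by deposited TPM, 4 by counts of the second quantification and 0 by its TPM. By TMM, DESeq2 size factors and counts of the second quantification 18 of 18 were above 0. By library totals 14 were, by deposited TPM 10 and by TPM of the second quantification 3, so the count depends on the scale. The share of all genes above 0 was not computed, so these counts do not set the regulators apart.

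Of 9 genes with an upstream sequence, 7 held a C/EBP match (Lcn2, Lyz1, Lyz2, Ptx3, Saa3, Serpinb2 and Slpi), beside 36.8% of promoter entries. An AP-1 match occurred in Serpinb2 alone, beside 6.75%. It was listed at -94 to -88 and at -181 to -175 with the same letters, which may be 1 site seen from different promoter entries of the gene. A gene was counted when any of its entries matched, while the percentages are over single entries, so the comparison is loose. No kappaB consensus or PU.1 match occurred in the 9, beside 3.90% and 2.44%. The C/EBP matches were found at both high and low levels, in Saa3 and Lyz2 as in Ptx3 and Slpi. A match is a stretch of letters and not a bound site, and the lack of one says only that these letters are not in this window.

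Acute-phase relatives were less present, with 4 of 22 at 1 TPM or more in both libraries and 10 at 0 TPM in both, and a median level of 0 TPM in each library. C3, the central complement component, had 135 and 136 TPM, Cp, the copper carrier ceruloplasmin, 68.9 and 94.8 TPM, and Cfb, a factor of the alternative complement pathway, 82.0 and 42.5 TPM. Those at 0 counts included Apcs and the 3 fibrinogen genes Fga, Fgb and Fgg, which the liver makes. Crp, also at 0 counts by the first quantification, was at 0.163 and 1.17 TPM by the second. Of the 8 compared, 4 had a log2 ratio above 1 and 1, Mt2, a metallothionein gene, was at -2.19, beside 5.85% of all genes above 1 and 7.52% below -1. Those above were Lbp at 2.24, Serpina3f at 1.31, Cfb at 1.25 and Serpina3g at 1.20. Lbp had 30 and 4 counts, and a ratio of 0.57 by counts of the second quantification. The 95% counting intervals of Lbp (0.84 to 4.32), Serpina3f (0.19 to 2.69) and Serpina3g (0.85 to 1.57) include 1. The Cfb interval, 1.19 to 1.32, does not. The Mt2 interval, -3.90 to -0.93 on 6 and 20 counts, includes -1. By deposited TPM 1 of the 8 was above 1, and by TPM of the second quantification 0 were. Orm2, an orosomucoid gene, had 0.48 and 0.63 TPM by the first quantification and 12.6 and 18.2 TPM by the second, so its level is uncertain.

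Antimicrobial relatives had 8 of 24 at 1 TPM or more in both and 8 at 0 TPM, with medians of 0.10 and 0.125 TPM. The highest were Acod1, at the levels given above, Cybb, the catalytic subunit of the phagocyte oxidase, at 252 and 318 TPM, and Ncf1, a cytosolic subunit of the same oxidase, at 129 and 144 TPM. Nos2, the inducible nitric oxide synthase, had 11.2 and 5.17 TPM. It was the only 1 of 8 compared with a log2 ratio above 1, beside 5.85% of all genes compared. Its ratio was 1.48, against 0.22 by TPM of the second quantification. Ltf, Ngp and Mpo, genes of neutrophil granules, had at most 7 counts in either library.

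Serpin relatives had 6 of 11 at 1 TPM or more and medians of 1.84 and 2.26 TPM, led by Serpinb6a at 21.8 and 27.2 TPM, Plau, the urokinase whose activity Serpinb2 inhibits, at 16.1 and 13.7 TPM, and Plaur, its receptor, at 6.16 and 10.7 TPM. Receptors and binding partners had 10 of 14 and medians of 16.5 and 20.6 TPM, led by Cd14, the co-receptor for lipopolysaccharide, at 130 and 164 TPM, Lrp1, an endocytic receptor, at 138 and 146 TPM, and Lgals3, a galectin gene, at 140 and 133 TPM. None of the 8 serpin relatives and 10 receptors and binding partners compared was beyond 1 in either direction, beside 13.4% of all genes compared. The receptors reported for Lcn2 were at or near 0 by the first quantification, with Slc22a17 at 0 and 1 counts and Lrp2 at 0 and 0 counts. By the second, Slc22a17 was at 0.12 and 0.30 TPM and Lrp2 at 0.66 and 1.29 TPM, so their levels are uncertain. Cd163, the haemoglobin-haptoglobin receptor, had 0.04 and 0.10 TPM by the first quantification.

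**Figure D4:**
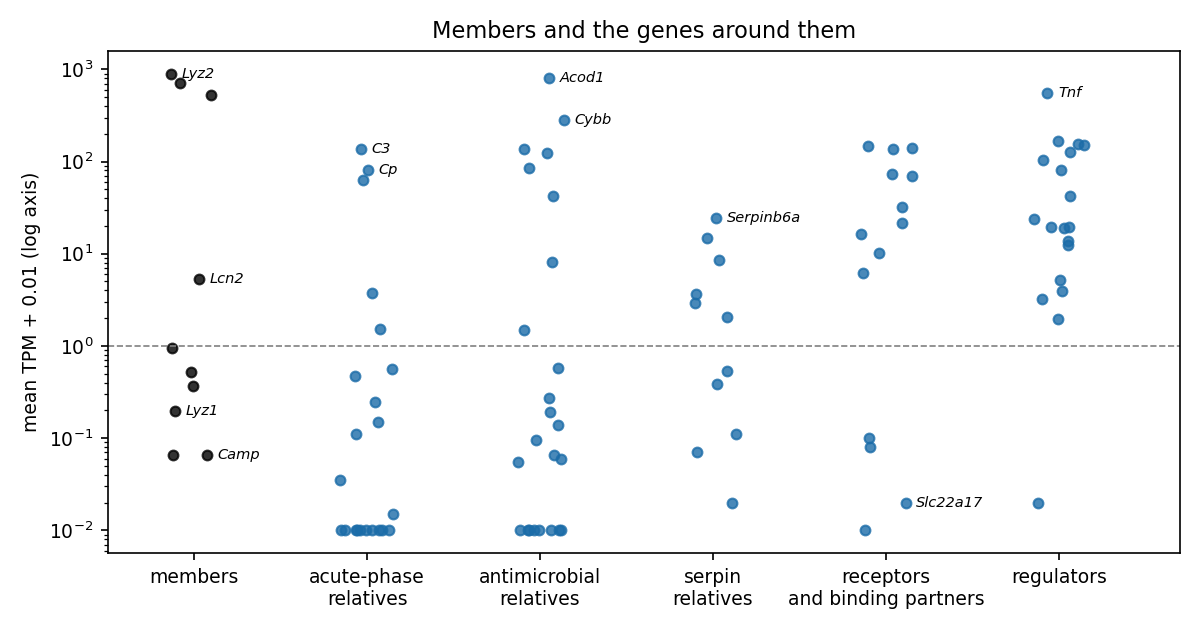
Mean TPM over both libraries plus 0.01, on a log axis, of the 10 genes (black) and of the genes in each of the 5 lists (blue), with the dashed line at 1 TPM. The black points split into 3 near the top and 7 lower, while 18 of 19 regulators lie above the line and 10 acute-phase relatives lie at the bottom, at 0 TPM in both libraries.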

How the data were processed

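Each library has 2 quantifications on mm10 with GENCODE M21. The first has column names that RSEM writes. Per the file headers, the authors' deposited tables give per gene and transcript an expected count, in which shared reads are split by a model, and TPM scaled over all features, and per transcript its percent of the gene's TPM. In the second, whose columns are those kallisto writes, the authors' files list for every transcript its estimated count and its TPM, summed here per gene. Aligner, versions and strand setting: not given in the sources used here. Reads of overlapping genes and paralogs can therefore mix.

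Expected counts were rounded. Rows naming no gene (0.766% of counts in replicate 1, 0.272% in replicate 2) were left out. TMM factors (edgeR 4.0.16, mean count 10 or more) were 0.944 and 1.06. Ratios used a prior count of 0.5. Ratio intervals are exact binomial 95% counting intervals. DESeq2 1.42.0 gave size factors as an alternative. Both libraries form 1 group, so no test was made. The ratio was tested on simulated data. Median levels are of log2(TPM + 1), printed as TPM. Alignments used Biopython 1.88 and upstream sequences came from RefSeq (GRCm38.p6).

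The 10 genes, the 5 lists and the 10 marker lists were chosen with earlier results of these data known. Named were all 10 genes, the 3 highest and the lowest genes of each list, the C/EBP factors, the 2 genes nearest in log2(TPM + 1) to each of the 3 highest, and the highest marker of each list. A gene that this rule names is not reported here. Genes named for a ratio above 1, Orm2, Cd163, Ltf, Ngp, Mpo and genomic neighbours were chosen after their values were seen.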

Additional observations from a re-analysis of the deposited data

How the results depend on the processing

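No paired analysis was possible because both libraries belong to 1 group. Of the 10 genes, 4 were at 1 TPM or more in both libraries. With TPM rescaled over protein-coding and long non-coding genes 7 were, and at a threshold of 0.1 TPM 8 were. The shares over all protein-coding genes under those settings were not computed, so these counts do not set the 10 genes apart. Their summed level of 2150 TPM was 1017 by the second quantification and 9989 rescaled, and their median of 0.717 TPM was 0.396 and 3.28. Genes differing between the libraries were 1, and 2 with no filter on counts (adding Ptx3) and 2 by the second quantification (adding Saa3). Ptx3 was added on 7 counts in replicate 1 and 1 in replicate 2. The share over all genes without the filter was not computed. Lyz1 held 0.0226% of the TPM of the Lyz pair, and 0.0353% by the second quantification. With 1 library left out, 4 to 5 genes were at 1 TPM, the sum ran from 2061 to 2239 TPM, the median from 0.622 to 0.812 TPM and the Lyz1 share from 0.0136 to 0.0315%. The TPM share of intron-covering isoforms ran from 10.3 to 12.6% for Saa3 and from 42.3 to 55.5% for Lcn2, and the list genes at 1 TPM from 46 to 47. Nuclear-encoded protein-coding genes held 17.2% of the TPM of all genes in replicate 1 and 17.8% in replicate 2. The rescaling therefore raises each of the 10 genes by arithmetic, by a common factor within each library. Causes of the other shifts were not tested. Of 40 alternatives for single levels 18 moved by more than 1 SD. With 2 libraries, leaving 1 out cannot move a mean by its SD, so all 18 came from the second quantification or the rescaling. Of 30 alternatives for single ratios 12 moved, all for Lyz2, Saa3 and Mpeg1, whose high counts make the counting intervals narrow. That count therefore does not rank the genes by how stable their ratios are. Slpi, Lyz1, Camp and Ptx3, at 1 to 11 counts, are limited by depth.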
